A study of Mus musculus with 2 samples.

Results

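Collagens are the triple-helical proteins of the extracellular matrix, and the collagen family was followed here in RNA sequencing of mouse hindlimb muscle. The members were the genes of type mRNA whose symbol is Col, a number, the letter a and a number, which gave 44 of the 22669 mRNA genes and 44787 genes in the deposited table. Col4a3bp, whose symbol goes on past this pattern and which encodes a lipid transfer protein, was not counted. The study compared 1 library of genotype SRSF2 flox/flox MyoD-Cre (the knockout library) with 1 library of genotype SRSF2 flox/flox (the control library), so both genotypes carried the floxed Srsf2 alleles and the Cre allele was present only in the knockout. MyoD-Cre expresses Cre recombinase from the locus of a myogenic transcription factor, in the muscle lineage, and Srsf2 encodes a splicing factor of the SR family. No source used here gives the age, the sex or the number of animals behind each library. An effect of the Cre allele cannot be told apart from one of Srsf2 loss.

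Each collagen molecule is a trimer of α chains, with a glycine recurring at regular steps along the helix. Fibrillar collagens (types I, II, III, V, XI, XXIV and XXVII) assemble into the fibrils of bone, tendon, skin, cartilage and the connective tissue around muscle fibres. Fibril-associated collagens sit on the surface of those fibrils, type IV forms the network of basement membranes, type VI forms beaded filaments next to muscle fibres, and transmembrane collagens are cell surface proteins. In muscle, fibroblasts and fibro-adipogenic progenitors make most fibrillar collagen, while endothelial cells and muscle cells contribute to basement membranes.

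The knockout library held 76702198 reads and the control library 69422626. Values are FPKM, fragments normalised to gene length and library size, and a difference is log2((knockout FPKM + 1)/(control FPKM + 1)), which understates the change of low genes. Genes that reached 1 FPKM in either library count as measured. The rule of size was 2-fold, a difference of 1 or beyond for higher genes and of -1 or beyond for lower ones. Each genotype has 1 library, so there is no replicate check and no test, and the 95% intervals given with ratios cover counting error only. In a bulk sample, fewer cells of a type and less RNA per cell cannot be told apart. Srsf2 was at 19.4 FPKM (knockout) against 31.1 FPKM (control), in the direction of the labels. The median of all 13175 measured genes lay at 0.18 with the values as deposited, so differences are also given against it.

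Marker genes of other cell types also differed in level between the libraries, and their part in the collagen values was not tested. Keratinocyte markers, led by Krt10, Krt1 and Flg, summed to 2091 FPKM (knockout) and 15.5 FPKM (control). Of the 15 in the list, 14 passed the minimum in knockout tissue and 5 in control tissue, where Dsg3 was listed at 0. All 9 bone markers were measured, led by Spp1, Ibsp and Dmp1, and summed to 1967 FPKM (knockout) against 1097 FPKM (control), a ratio of 1.79. Most of the bone sum was held by Spp1 and Ibsp, each at 927 FPKM in the knockout library. The 9 chondrocyte markers (7 measured, led by Acan, Lect1 and Comp) summed to 40.1 FPKM (knockout) and 22.3 FPKM (control), a ratio of 1.80. The 9 fibroblast markers, all measured and led by Dcn, Gsn and Lum, summed to 492 FPKM (knockout) and 343 FPKM (control), a ratio of 1.43. The 6 tendon markers, led by Tnmd, Thbs4 and Fmod, summed to 301 FPKM (knockout) and 260 FPKM (control). The 7 adipocyte markers (6 measured), led by Fabp4, Adipoq and Retn, summed to 587 FPKM (knockout) and 289 FPKM (control). Most of the adipocyte sum was held by Fabp4, at 495 FPKM (knockout) and 262 FPKM (control). The 7 endothelial markers, led by Pecam1, Cdh5 and Kdr, had a slightly lower sum, with 137 FPKM (knockout) and 150.3 FPKM (control), and 3 of the 7 had a difference above 0. The 10 skeletal muscle markers, led by Myh8, Acta1 and Tnnt3, were all present, at 21293 FPKM (knockout) against 37584 FPKM (control), a ratio of 0.567. Of these 10, 9 had a difference below 0 and 1 above it. Apart from Dsg3, no marker of these lists was at 0 in either library. Not every marker followed the sum of its list. A difference above 0 was seen in 8 of 9 bone, 8 of 9 fibroblast and 5 of 6 tendon markers. The same held for all 7 measured chondrocyte, all 6 measured adipocyte and all 14 measured keratinocyte markers, against 73% of all measured genes. Markers that reached 1 FPKM only in the knockout library lay above 0 by construction. Of those measured in the control library, all 5 keratinocyte, 6 chondrocyte and 6 adipocyte markers lay above 0. The share of all genes so measured was 71.1%.

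The collagen family as a whole took a larger part of the knockout library. Summed over its 44 genes, it reached 6365 FPKM (knockout) against 4104 FPKM (control), a ratio of 1.55, or 1.35% (knockout) and 0.871% (control) of all FPKM. Of the 44 genes, 39 were measured, 36 of them also by the control value alone, and 3 (Col17a1, Col6a5 and Col4a5) passed that minimum only in the knockout library. Of the 39 measured genes, 38 had a difference above 0, as did 73% of all measured genes and 74.5% of measured mRNA genes, and 1, Col23a1, lay below 0. Against the median gene 32 of the 39 lay above it and 7 below. Among the 36 genes measured in the control library 35 lay above 0, against 71.1% of all genes so measured, and their median difference was 0.53, against 0.16.

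Most collagen differences lay above the median gene and under 2-fold. By the rule of size 1 collagen gene of 39 was higher, Col17a1, and none was lower, against 2.68% higher and 0.744% lower of all measured genes (2.41% and 0.36% of mRNA genes), so the count past the rule lies near the background. Col17a1 passed the minimum only in the knockout library, and no collagen was higher among the 36 measured in the control library, against 1.06% of all genes so measured, or at 5 FPKM or more. At 1.5-fold on the same scale, 15 of the 39 were higher, against 9.15% of all measured genes and 8.67% of mRNA genes, and 13 of the 36 measured in the control library were, against 6.86%. The counting interval of the ratio lay above 1 for 32 of the 35 measured collagens with recovered reads and below 1 for 1. For all such genes the shares were 50.1% above and 12.7% below, and for mRNA genes 52.6% and 12.7%. Whether an interval clears 1 also depends on read number, which was not matched. Col4a1, with 32384 knockout reads, counted as above 1 at a ratio of 1.09, under the median ratio of 1.15 of genes measured in both libraries. With the libraries scaled by the median of ratios, 33 of 39 had a difference above 0, and Col4a1, Col4a2, Col18a1, Col19a1 and Col27a1 changed sign to below 0, as they did under both other scalings that centre the libraries.

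**Figure D1:**
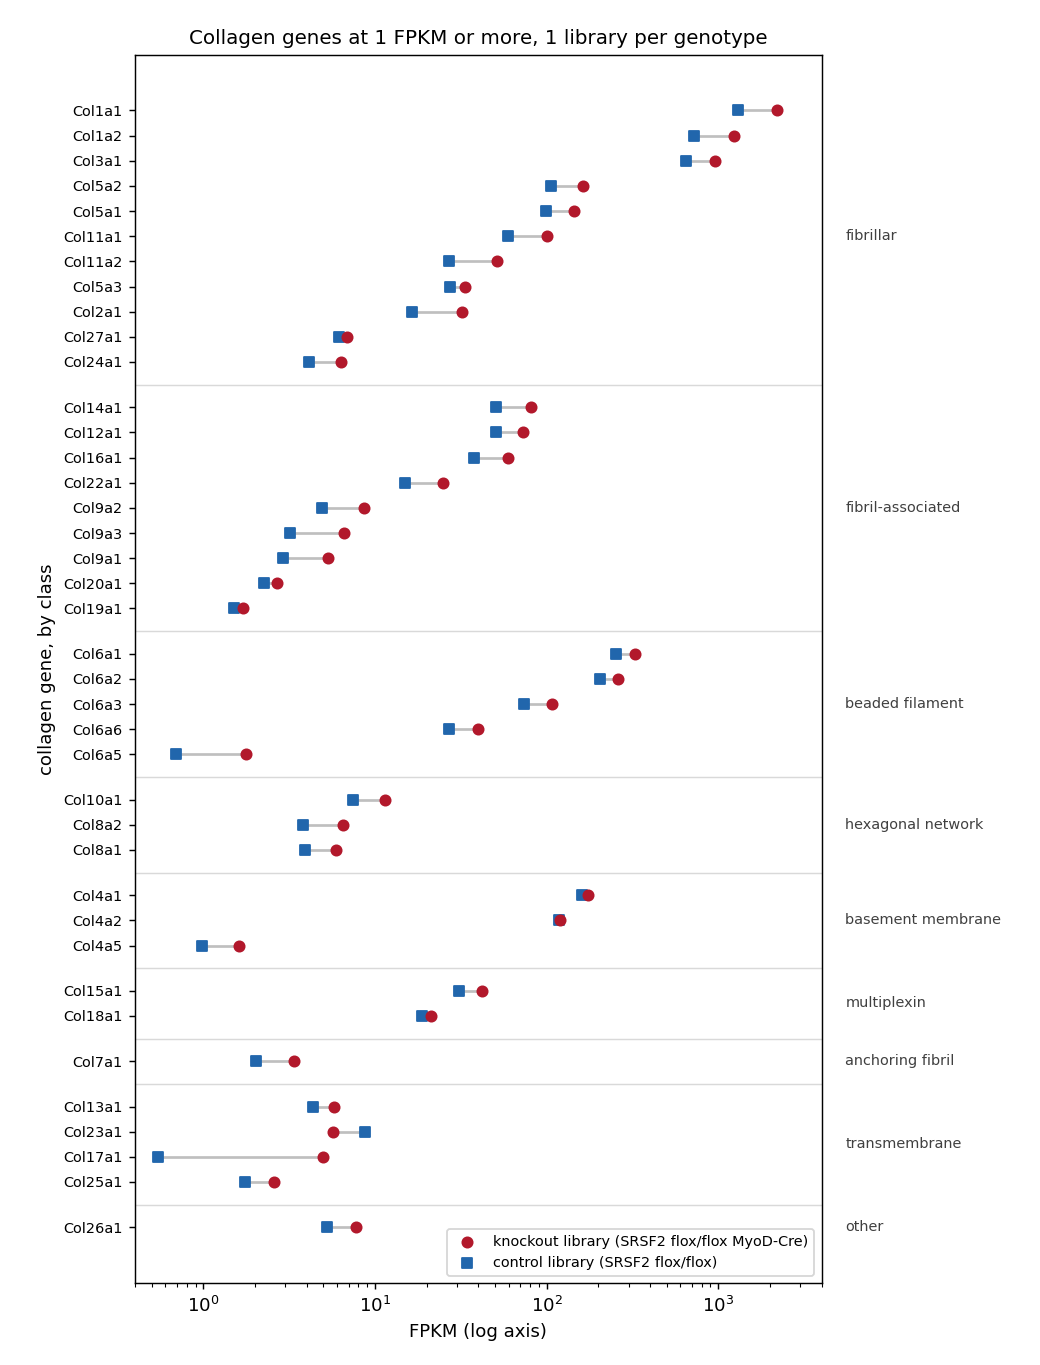
FPKM of the 39 measured collagen genes on a log axis, grouped by class, with circles for the knockout library and squares for the control library and a grey line joining both values of a gene. With the values as deposited, every circle lies to the right of its square except that of Col23a1 (knockout 5.67 FPKM, control 8.69 FPKM), and the widest gap is that of Col17a1 (knockout 4.96 FPKM, control 0.542 FPKM).

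The classes differed in their medians. The median difference of the measured members was 0.67 for the fibril-associated class (9 genes), 0.61 for the fibrillar class (11 genes), 0.55 for beaded filaments (5 genes), 0.57 for the hexagonal network formers of types VIII and X (3 genes), 0.35 for the transmembrane class (4 genes) and 0.12 for type IV of basement membranes (3 genes). The type IV median falls below 0 when the libraries are scaled by the median of ratios, TMM or without the 50 most abundant genes. The transmembrane median is 0.19 under the median of ratios, and -0.11 over the 2 genes at 5 FPKM or more. Over genes measured in the control library, the median was 0.46 for beaded filaments (4 genes, without Col6a5). It was 0.32 for the transmembrane class (3 genes, without Col17a1) and 0.072 for type IV (2 genes, without Col4a5). The differences between classes were not tested, since each gene was measured in 1 library per genotype.

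The fibrillar class held most of the collagen RNA, with 4950 FPKM (knockout) against 3011 FPKM (control), 77.8% (knockout) and 73.4% (control) of the summed collagen. Col1a1 (GRCm38 chromosome 11, 94936270 to 94951867, plus strand), the α1 chain of type I, was at 2208 FPKM (knockout) against 1301 FPKM (control). Its ratio was 1.70 (1.69 to 1.71), and it ranked 11th among mRNA genes by FPKM in the knockout library and 17th in the control library. Col1a2 (chromosome 6, 4505697 to 4541543, plus strand), the α2 chain that completes the type I trimer, was at 1243 FPKM (knockout) against 720 FPKM (control), a ratio of 1.73. Both type I chains thus stood higher by nearly the same factor. Col3a1 (chromosome 1, 45311538 to 45349706, plus strand), which forms the homotrimeric type III of distensible tissues, was at 962 FPKM (knockout) against 644 FPKM (control), a ratio of 1.49. Reads of Col1a2, Col3a1, Col5a1 and Col16a1 did not come out as whole numbers, so these 4 have no interval, and how reads shared with similar genes were divided is not known.

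The promoter windows of Col1a2 and Col3a1 are shown because these fibrillar genes are among the most abundant of the family and both were higher. The windows run from 250 bases before to 50 after the start site, from RefSeq on GRCm38.p6, 5′ to 3′ on the strand of the gene. Capitals mark 4 short motifs searched on both strands, the TATA box (TATAAA), the CCAAT box (CCAAT), the GC box (GGGCGG) and the AP-2 motif (GCCNNNGGC).
Col1a2 (chr6:4505368-4505667, plus strand): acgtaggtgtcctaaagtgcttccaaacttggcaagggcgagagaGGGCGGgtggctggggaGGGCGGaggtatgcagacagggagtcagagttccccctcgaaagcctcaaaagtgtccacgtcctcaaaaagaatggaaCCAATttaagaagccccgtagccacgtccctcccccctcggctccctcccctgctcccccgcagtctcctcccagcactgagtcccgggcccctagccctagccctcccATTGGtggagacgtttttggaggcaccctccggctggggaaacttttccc
Col3a1 (chr1:45311288-45311587, plus strand): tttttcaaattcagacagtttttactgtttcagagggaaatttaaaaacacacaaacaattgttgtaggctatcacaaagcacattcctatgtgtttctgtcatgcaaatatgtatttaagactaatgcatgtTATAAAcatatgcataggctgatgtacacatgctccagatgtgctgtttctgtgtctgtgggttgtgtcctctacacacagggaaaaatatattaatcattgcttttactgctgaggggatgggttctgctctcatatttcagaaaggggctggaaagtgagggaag
The Col1a2 window holds 2 GC boxes and 2 CCAAT boxes. One CCAAT box lies on the opposite strand and begins at the start site of the sequence table. The deposited span of Col1a2 begins at 4505697, past the end of this window at 4505667, so the 2 sources place its start differently. The Col3a1 window holds 1 TATA box and none of the other motifs. No motif overlapped another in either window. Of 35 collagen genes with a window in the table, 22 hold the GC box, 12 the CCAAT box, 8 the AP-2 motif and 5 the TATA box. The same letters occur in 35.7%, 37.4%, 16.6% and 13.6% of all 32851 windows. A match is a description of letters and not a bound site, and no match says only that these letters are not in this window.

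The chains of type V, a minor component that sets fibril diameter, lay lower in difference than type I. Col5a1 was at 144 FPKM (knockout) against 99.5 FPKM (control), a ratio of 1.44, and Col5a2 at 162 FPKM (knockout) against 106 FPKM (control), a ratio of 1.53 (1.503 to 1.56). Col5a3, a less common chain, was at 33.5 FPKM (knockout) against 27.4 FPKM (control), a ratio of 1.22 (1.17 to 1.27), so its interval lay under that of Col5a2. Col24a1, a fibrillar collagen known from bone and cornea, was at 6.32 FPKM (knockout) against 4.11 FPKM (control), and Col27a1, known from cartilage, at 6.88 FPKM (knockout) against 6.20 FPKM (control), with ratios of 1.54 (1.41 to 1.68) and 1.11 (1.03 to 1.20). Col27a1 had the ratio closest to 1 in the class, was the 1 gene of the 11 below the median gene, and fell below 0 when scaled by the median of ratios.

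Col2a1 and Col11a2, fibrillar collagens of cartilage, had the highest ratios of the class. Col2a1 (chromosome 15, 97975602 to 98000392, minus strand), the main collagen of cartilage, was at 32.1 FPKM (knockout) against 16.4 FPKM (control). Its ratio was 1.96 (1.86 to 2.06), just under the 2-fold rule. Col11a2, a type XI chain of the same fibrils, was at 51.4 FPKM (knockout) against 26.99 FPKM (control), a ratio of 1.90 (1.84 to 1.97). Col11a1, which is also made outside cartilage, was at 101 FPKM (knockout) against 59.3 FPKM (control), a ratio of 1.70 (1.66 to 1.74). Taken as the set of types II, IX, X and XI, 7 genes summed to 216 FPKM (knockout) against 121 FPKM (control), a ratio of 1.78. The chondrocyte markers, none of which is a collagen, had a ratio of sums of 1.80, and the bone markers had 1.79. The median differences were 0.75 for the 7 collagens, 0.56 for the measured chondrocyte markers and 0.72 for the bone markers. A link between these lists was not tested.

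Among fibril-associated collagens all 9 measured genes had a difference above 0, and 7 lay above the median gene, with Col20a1 level with it and Col19a1 below. The 3 chains of type IX, which decorate cartilage fibrils, were close to Col2a1 in ratio. Col9a1 was at 5.33 FPKM (knockout) against 2.92 FPKM (control), a ratio of 1.82 (1.58 to 2.10). Col9a2 was at 8.62 FPKM (knockout) against 4.88 FPKM (control), a ratio of 1.77 (1.55 to 2.02), and Col9a3 at 6.55 FPKM (knockout) against 3.19 FPKM (control), a ratio of 2.05 (1.76 to 2.40). The intervals of the 3 chains overlapped each other and that of Col2a1.

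Types XII and XIV, found on type I fibrils of tendon, fascia and skin, were the most abundant of the class. Col14a1 was at 80.9 FPKM (knockout) against 50.6 FPKM (control), a ratio of 1.60 (1.56 to 1.64). Col12a1 was at 72.5 FPKM (knockout) against 50.8 FPKM (control), a ratio of 1.43 (1.40 to 1.45), and its interval did not reach that of Col14a1. Col16a1, of skin and cartilage matrix, was at 59.9 FPKM (knockout) against 37.8 FPKM (control), a ratio of 1.58. Col22a1, which is found at myotendinous junctions, was at 24.7 FPKM (knockout) against 14.98 FPKM (control), a ratio of 1.65 (1.40 to 1.95). The length recovered for Col22a1 was 566 bases, with 393 knockout reads and 226 control reads, against 8809 for its longest GENCODE transcript, so its level relative to other genes is uncertain. Col22a1 stood higher in the library in which the sum of the skeletal muscle markers was lower. Col19a1 was at 1.71 FPKM (knockout) against 1.51 FPKM (control) with an interval that held 1 (ratio 1.13, 0.973 to 1.31) and a difference below 0 when scaled by the median of ratios, and Col20a1 at 2.67 FPKM (knockout) against 2.24 FPKM (control), a ratio of 1.19 (1.03 to 1.38).

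Type VI collagen, whose mutations cause congenital muscular dystrophies in humans, had the second largest sum after the fibrillar class, 738 FPKM (knockout) against 557 FPKM (control). Col6a1 was at 327 FPKM (knockout) against 252 FPKM (control) and Col6a2 at 262 FPKM (knockout) against 203 FPKM (control), with ratios of 1.29 for both (1.27 to 1.31 each, after rounding). Col6a3, the longest chain of the trimer, was at 108 FPKM (knockout) against 73.3 FPKM (control), a ratio of 1.47 (1.45 to 1.499), above the interval of the other chains. Col6a6, an alternative to the α3 chain, followed Col6a3 closely, at 39.7 FPKM (knockout) against 26.8 FPKM (control), a ratio of 1.48 (1.43 to 1.53). Col6a5, a further alternative chain, was low at 1.77 FPKM (knockout) against 0.688 FPKM (control), and its ratio of 2.57 (2.15 to 3.08) was the highest of the measured collagens outside the transmembrane class. It reached 1 FPKM only in the knockout library. Col6a4 was not measured, at 0.144 FPKM (knockout) against 0.0857 FPKM (control).

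The network formers of types VIII and X had ratios within the range of the fibrillar class. Col10a1, the marker collagen of hypertrophic chondrocytes, was at 11.5 FPKM (knockout) against 7.41 FPKM (control), a ratio of 1.55 (1.40 to 1.71). The deposited span of Col10a1 overlaps that of Nt5dc1, a gene on the other strand at 3.08 FPKM (knockout) against 1.63 FPKM (control). Overlap of their exons was not checked and the strand setting is not given, so whether they share reads is not known. Col8a1 and Col8a2, of vessel walls and the cornea, were at 5.95 FPKM (knockout) against 3.91 FPKM (control) and at 6.53 FPKM (knockout) against 3.80 FPKM (control), with ratios of 1.52 (1.36 to 1.70) and 1.72 (1.53 to 1.93).

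**Figure D2:**
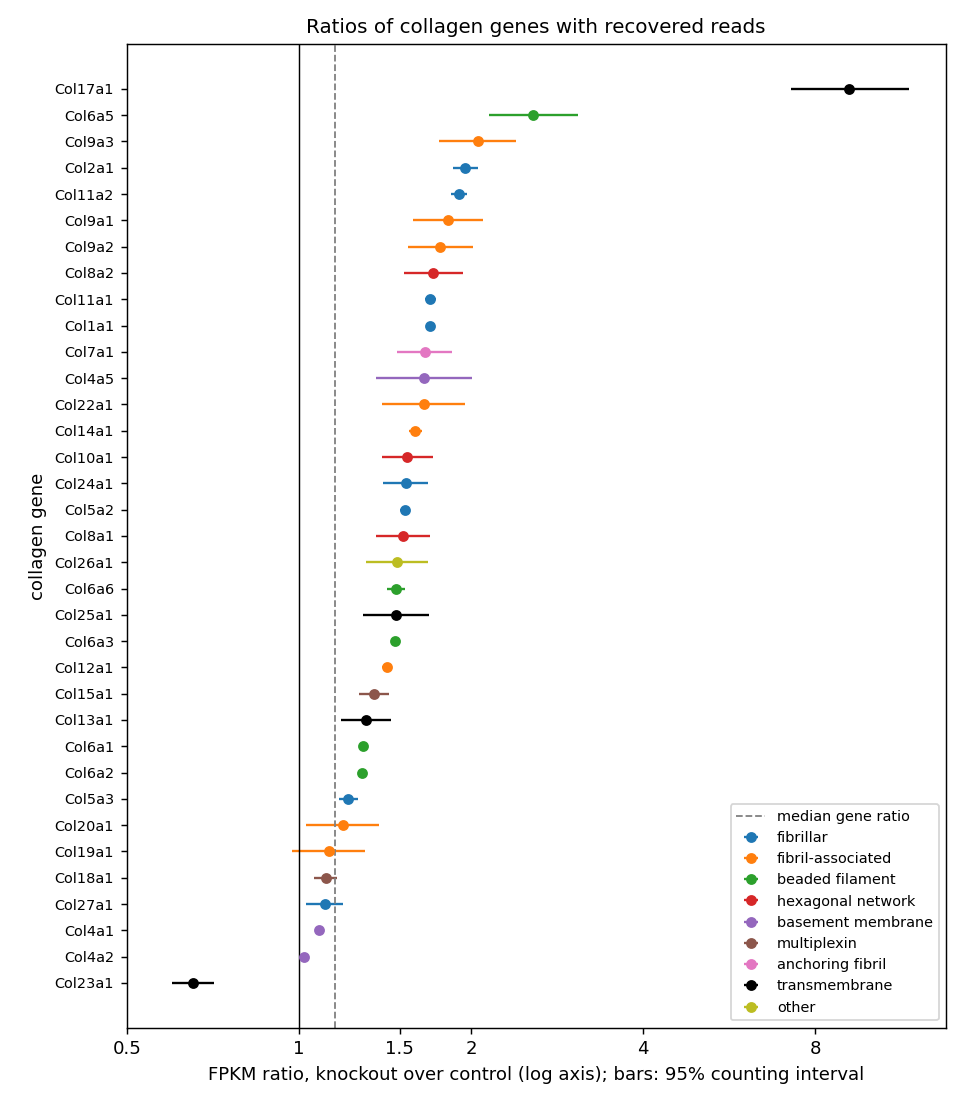
Ratio of knockout to control FPKM for the 35 measured collagen genes with recovered reads, on a log axis, with bars for the 95% counting interval and the dashed line at the median ratio of all genes measured in both libraries (1.15). Col17a1 (9.14) and Col23a1 (0.652) stand apart from the rest, and Col9a3 (2.05) and Col2a1 (1.96) lie near 2. Besides Col23a1, the genes left of the dashed line are Col4a1, Col4a2, Col18a1, Col19a1 and Col27a1.

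Type IV collagen of basement membranes stood nearly level between the libraries. Col4a1 (chromosome 8, 11198423 to 11312826, minus strand) was at 174 FPKM (knockout) against 161 FPKM (control), a ratio of 1.09 (1.07 to 1.10). Col4a2 (chromosome 8, 11312829 to 11449287, plus strand) was at 119.6 FPKM (knockout) against 117 FPKM (control), a ratio of 1.02 with an interval that held 1 (0.999 to 1.04). Both lay below the median gene with the values as deposited, and both fell below 0 when the libraries were scaled by the median of ratios (to -0.088 and -0.18). The 6 type IV genes made up 4.65% of the summed collagen FPKM in the knockout library and 6.80% of that in the control library, while the endothelial markers had a ratio of sums of 0.911. The other type IV chains were scarce. Col4a5 was at 1.61 FPKM (knockout) against 0.975 FPKM (control), a ratio of 1.65 (1.36 to 2.01), and Col4a3, Col4a4 and Col4a6 stayed at 0.137 FPKM or less in both libraries.

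Col4a1 and Col4a2 encode the chains of the common type IV trimer and lie head to head. Their promoter windows are shown because the genes are divergent neighbours that encode chains of 1 trimer. Their differences were 0.12 and 0.03, and the intervals of their ratios did not overlap.
Col4a1 (chr8:11312777-11313076, minus strand): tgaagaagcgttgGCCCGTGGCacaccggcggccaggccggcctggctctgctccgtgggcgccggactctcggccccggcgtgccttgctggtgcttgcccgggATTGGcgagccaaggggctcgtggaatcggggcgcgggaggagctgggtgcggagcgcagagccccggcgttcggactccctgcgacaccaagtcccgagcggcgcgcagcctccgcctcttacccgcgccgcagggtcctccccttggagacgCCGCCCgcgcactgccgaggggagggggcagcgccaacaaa
Col4a2 (chr8:11312555-11312854, plus strand): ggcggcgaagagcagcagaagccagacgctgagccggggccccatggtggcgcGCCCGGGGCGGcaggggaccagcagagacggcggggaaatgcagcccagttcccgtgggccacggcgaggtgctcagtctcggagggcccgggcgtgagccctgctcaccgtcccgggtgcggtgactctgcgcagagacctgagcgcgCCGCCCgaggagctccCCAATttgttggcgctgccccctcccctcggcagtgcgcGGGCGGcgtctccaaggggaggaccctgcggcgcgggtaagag
The windows share 78 bases, from 11312777 to 11312854 on chromosome 8, and their start sites in the sequence table lie 21 bases apart. The Col4a1 window holds 1 GC box, 1 CCAAT box and 1 AP-2 motif, and the Col4a2 window holds 3 GC boxes, 1 CCAAT box and 1 AP-2 motif, of which 1 GC box overlaps the AP-2 motif. The GC box of Col4a1 and the last one of Col4a2 are the same bases of the shared stretch.

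The genes of the other head-to-head pairs were low. Col4a3 and Col4a4, 71 bases apart on chromosome 1 by the deposited positions, had knockout values of 0.0290 and 0.137 FPKM and control values of 0.0523 and 0.0961 FPKM. Col4a5 and Col4a6, 1293 bases apart on chromosome X, differed in level, with Col4a6 at 0.0965 FPKM (knockout) against 0.0282 FPKM (control). Col3a1 and Col5a2, tail to tail and 24624 bases apart on chromosome 1, had differences of 0.58 and 0.61. Col9a1 and Col19a1, tail to tail and 4944 bases apart on that chromosome, had differences of 0.69 and 0.11. The distance between the differences of neighbours thus varied from pair to pair.

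The multiplexins, proteoglycan-like collagens of the basement membrane zone, were at moderate levels. Col15a1, of muscle and capillary basement membranes, was at 41.8 FPKM (knockout) against 30.9 FPKM (control), a ratio of 1.35 (1.27 to 1.44). The length recovered for Col15a1 was 2146 bases, against 5172 for its longest GENCODE transcript, so its level relative to other genes is uncertain. Col18a1, the precursor of endostatin, was at 21.04 FPKM (knockout) against 18.9 FPKM (control), a ratio of 1.11 (1.06 to 1.17), below the median gene and below 0 when scaled by the median of ratios. Col7a1, the anchoring fibril collagen that fastens epidermis to dermis, was at 3.37 FPKM (knockout) against 2.03 FPKM (control), a ratio of 1.66 (1.49 to 1.86). Of the remaining types, Col26a1 was at 7.76 FPKM (knockout) against 5.22 FPKM (control), a ratio of 1.48 (1.31 to 1.68), and Col28a1, near nerves, was not measured, at 0.748 FPKM (knockout) against 0.483 FPKM (control).

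The transmembrane class spread more than any other, from the highest to the lowest ratio of the 35 measured genes with recovered reads. Col17a1 (chromosome 19, 47646344 to 47683367, minus strand), the hemidesmosome collagen of basal keratinocytes, was at 4.96 FPKM (knockout) against 0.542 FPKM (control). Its ratio of 9.14 (7.26 to 11.7) rests on 770 knockout reads and 80 control reads, and it was the collagen higher by the rule of size. It stood high in the same library as the keratinocyte markers, whose sums had a ratio of 135, but a link was not tested. The ratio of Col17a1 lay above that of Col7a1, the other collagen of the epidermal attachment.

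Col23a1 (chromosome 11, 51289682 to 51582474, plus strand) was the measured collagen with a lower value in the knockout library, at 5.67 FPKM there and 8.69 FPKM in the control library, a ratio of 0.652 (0.599 to 0.711). Its difference of -0.54 stayed short of the rule. Col13a1, a muscle collagen of the neuromuscular junction, was at 5.72 FPKM (knockout) against 4.37 FPKM (control), a ratio of 1.31 (1.18 to 1.45), and Col25a1, which takes part in motor innervation of muscle, at 2.56 FPKM (knockout) against 1.74 FPKM (control), a ratio of 1.48 (1.29 to 1.69).

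The promoter windows of Col17a1 and Col23a1 are shown because these genes had the highest and the lowest ratio of the measured members.
Col17a1 (chr19:47691993-47692292, minus strand): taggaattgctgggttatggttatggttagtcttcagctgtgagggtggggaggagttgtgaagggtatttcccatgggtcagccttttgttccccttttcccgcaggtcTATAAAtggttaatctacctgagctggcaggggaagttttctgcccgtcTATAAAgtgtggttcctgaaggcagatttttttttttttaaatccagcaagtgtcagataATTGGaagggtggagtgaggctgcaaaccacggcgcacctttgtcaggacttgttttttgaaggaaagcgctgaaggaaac
Col23a1 (chr11:51289670-51289969, plus strand): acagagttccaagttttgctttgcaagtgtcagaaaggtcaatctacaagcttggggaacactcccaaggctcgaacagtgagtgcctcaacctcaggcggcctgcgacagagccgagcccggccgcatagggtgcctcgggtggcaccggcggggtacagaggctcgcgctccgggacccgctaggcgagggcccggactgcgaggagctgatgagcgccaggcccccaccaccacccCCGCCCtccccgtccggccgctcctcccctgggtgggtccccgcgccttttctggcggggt
The Col17a1 window has 46.3% G and C, with 2 TATA boxes and 1 CCAAT box. The Col23a1 window has 67.7% G and C and 1 GC box, and no other of the 4 motifs. The start of Col17a1 in the sequence table lies beyond the deposited span of the gene.

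Levels of chains can be set against each other because FPKM is per gene length, but only as far as the lengths used are right. The length recovered with the reads lay within 10% of the longest GENCODE transcript for 27 of 40 collagens, and for Col1a1, Col6a6 and Col11a2 it did not, which touches ratios between chains but not those between libraries. Col1a1 stood to Col1a2 as 1.78 (knockout) and 1.81 (control), for a heterotrimer with more α1 than α2 chains. Col4a1 stood to Col4a2 as 1.46 (knockout) and 1.37 (control), and Col6a1 to Col6a2 as 1.25 (knockout) and 1.24 (control). Col6a6 stood to Col6a3 as 0.367 (knockout) and 0.366 (control). These ratios of levels were close in both libraries, also where the levels themselves differed, although the intervals of Col4a1 and Col4a2 did not overlap. The ratio of Col6a3 to Col6a2 was further apart, at 0.412 (knockout) and 0.360 (control). Across types, Col3a1 to Col1a1 was 0.436 (knockout) and 0.495 (control). Within types V and XI, Col5a3 to Col5a2 was 0.206 (knockout) and 0.259 (control), and Col11a1 to Col11a2 was 1.96 (knockout) and 2.20 (control). In type IX, Col9a3 to Col9a2 was 0.760 (knockout) and 0.654 (control), but the intervals of Col9a2 and Col9a3 overlapped. No error was attached to these ratios beyond the counting intervals given above.

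**Figure D3:**
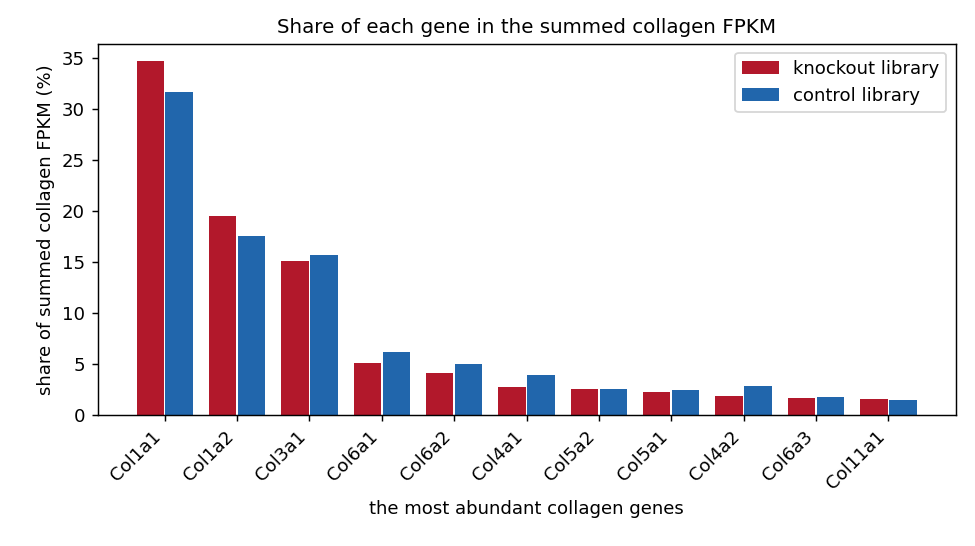
Share of the summed collagen FPKM, in percent, taken by the 11 most abundant collagen genes, with the knockout library as the left and the control library as the right bar of each gene. The shares of Col1a1 (knockout 34.7%, control 31.7%) and Col1a2 (knockout 19.5%, control 17.5%) were higher in the knockout library, and those of Col6a1 (knockout 5.13%, control 6.15%) and Col4a1 (knockout 2.74%, control 3.91%) were lower.

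Enzymes that modify, fold, cleave and cross-link collagen were followed as a list of 34 genes, of which 32 were measured. Of these, 1 was higher by the rule of size and none lower, and 31 of 32 had a difference above 0, against the 2.68% and 73% of all measured genes given above. Their median difference was 0.50, close to the 0.53 of the collagens, and 28 of 32 lay above the median gene. P4ha1, a catalytic subunit of prolyl 4-hydroxylase, which stabilises the triple helix, was the gene past the rule, at 30.5 FPKM (knockout) against 12.5 FPKM (control), a ratio of 2.45 (2.30 to 2.61). Serpinh1, the collagen-specific chaperone of the endoplasmic reticulum, came next by difference, at 243 FPKM (knockout) against 138 FPKM (control), a ratio of 1.76 (1.72 to 1.81). Lepre1, a prolyl 3-hydroxylase, was at 18.4 FPKM (knockout) against 10.7 FPKM (control), a ratio of 1.72 (1.53 to 1.93). At the other end lay Colgalt2, a collagen galactosyltransferase, at 1.27 FPKM (knockout) against 1.62 FPKM (control), a ratio of 0.787 (0.627 to 0.987). Sec23a, a coat protein of vesicles that carry procollagen, was at 12.3 FPKM (knockout) against 11.8 FPKM (control), and Adamts3, a procollagen propeptidase, at 1.08 FPKM (knockout) against 0.930 FPKM (control), both with intervals that held 1 (0.935 to 1.16 and 0.873 to 1.54).

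Collagen receptors lay on both sides of 0. Of 11 receptor genes 9 were measured, 6 with a difference above 0 and 3 below, with none past the rule of size, against 73% of all measured genes above 0. Their median difference of 0.30 was 0.11 when the libraries were scaled by the median of ratios. Mrc2, an endocytic receptor that clears collagen, was at 17.3 FPKM (knockout) against 10.3 FPKM (control), a ratio of 1.68 (1.58 to 1.78). Itga11, the α chain of a fibroblast integrin for fibrillar collagen, was at 4.06 FPKM (knockout) against 2.56 FPKM (control), a ratio of 1.58 (1.38 to 1.82), and Itga10, a chondrocyte integrin chain, at 4.66 FPKM (knockout) against 3.32 FPKM (control), a ratio of 1.41 (1.18 to 1.67). Ddr1, a receptor tyrosine kinase for collagen, was the lowest, at 5.39 FPKM (knockout) against 7.22 FPKM (control), a ratio of 0.747 (0.676 to 0.824). Itga1 was at 5.99 FPKM (knockout) against 6.01 FPKM (control) and Itga2 at 2.26 FPKM (knockout) against 2.49 FPKM (control), with intervals that held 1 (0.910 to 1.09 and 0.763 to 1.08).

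**Figure D4:**
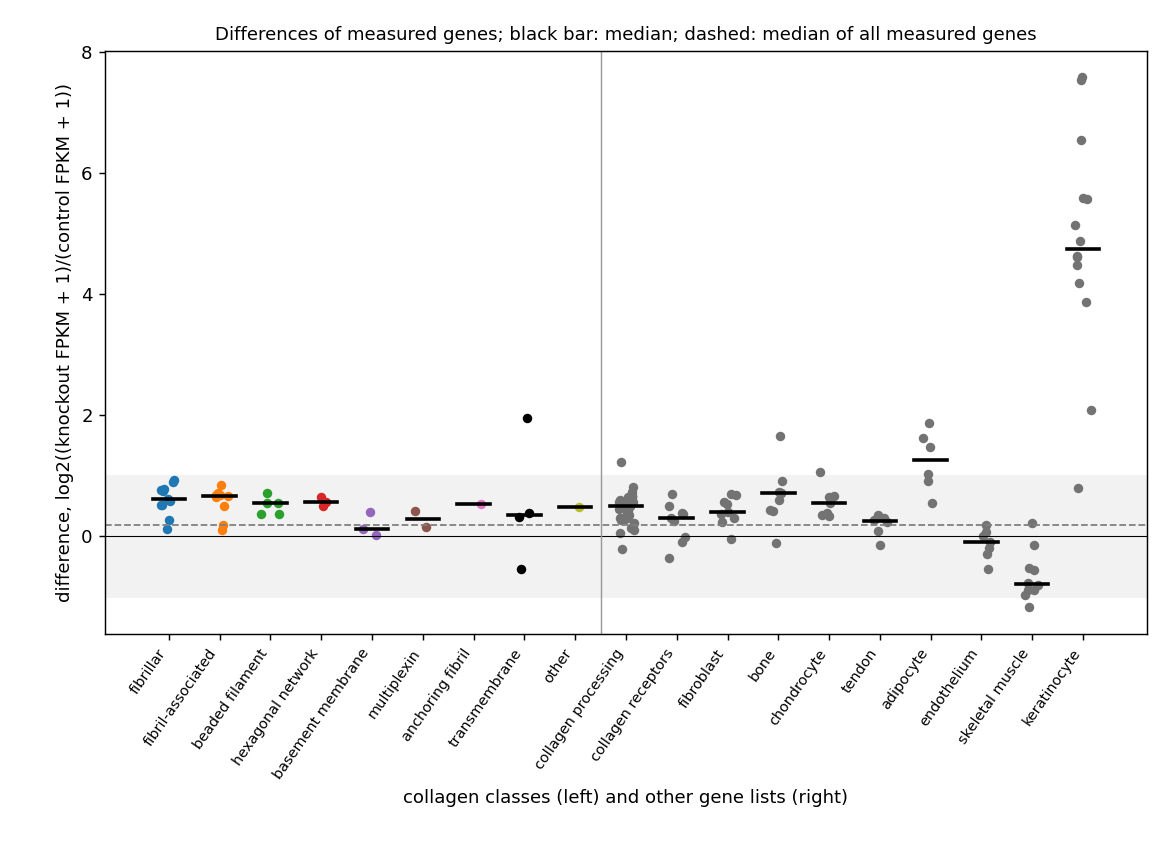
Differences of the measured genes, log2((knockout FPKM + 1)/(control FPKM + 1)), as dots by collagen class on the left and by other gene lists on the right, with a black bar at each median, a dashed line at the median of all measured genes (0.18) and grey shading where no gene is called by the rule of size. Fibrillar (0.61) and fibril-associated collagens (0.67) have medians between those of the fibroblast (0.41) and bone (0.72) markers, type IV (0.12, below 0 when scaled by the median of ratios) lies below the dashed line, and the keratinocyte markers reach 7.59.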

How the data were processed

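Hindlimb muscle RNA was sequenced from 1 library per genotype. The submitters' processing notes list Bowtie 0.12.2 and mm9 and give no role for either, but the deposited positions of 42 of the 44 collagen genes overlap the same symbol in GENCODE M21 (GRCm38); Col16a1 and Col11a2 are placed on scaffolds. No source used here names the counting tool, annotation or strandedness. Per-gene FPKM values were deposited by the authors, normalized to gene length and library size, and tables of read totals with mapping rates.

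The FPKM values were used as deposited, with a pseudocount of 1 FPKM, a minimum of 1 FPKM and a 2-fold rule of size. Values at whole reads are multiples of 1 read over a gene length, relative to 28060573 reads in the knockout and 26659452 in the control library. Whole read numbers that fit both libraries to a tolerance of 2e-14 were recovered for 94.3% of measured genes and 40 of 44 collagens, and set the exact Clopper-Pearson intervals of ratios. For 3 of these, Col1a1, Col6a5 and Col6a6, the implied length exceeded the annotated exons by over 1.3 times and the reads were halved, which widens the interval. Any multiple of reads and length gives the same FPKM, so the smallest solution was taken, which gives the widest interval. Because reads carry no molecular identifiers, the intervals hold counting error alone. Steps were checked on simulated data.

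Every measured collagen is named, as are the members of the processing and receptor lists past the rule or among the 3 at either end of the differences, and the 3 members of each marker list with the highest knockout FPKM. Members and lists were chosen with earlier results of these data known. 1 marker list is not reported here. All other list symbols were found, 8 under older names. The software was matplotlib 3.10.9, pandas 2.3.3, scipy 1.17.1, numpy 2.4.6 and Python 3.11.15. Alternatives covered the pseudocount, the minimum, the fold and 4 scalings.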

Additional observations from a re-analysis of the deposited data

How the results depend on the processing

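Leaving out a library was not possible. No paired analysis was possible because both genotypes have 1 library. The cause of the changes below was not tested. By construction a filter or fold sets which genes are counted, the median of ratios, TMM and the scaling without the 50 most abundant genes shift all genes together, and the common sum enlarges all values against the fixed pseudocount and minimum. In alternatives chosen after seeing the data, genes had to reach 1 FPKM in the control library, be mRNA, or have recovered reads.

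The count of 1 higher collagen was 3 with a pseudocount of 0.1 FPKM, 15 at 1.5-fold, 0 at 5 FPKM or more and 0 among genes measured in the control library. No collagen was lower under any of the 12 alternatives run for it. The counts of all genes, 353 higher and 98 lower, were 613 and 204 with a pseudocount of 0.1 FPKM, 169 and 54 at 5 FPKM or more, 1205 and 383 at 1.5-fold, 137 and 11 at 3-fold (92.6% higher, against 78.3%), and 605 and 212 when scaled to a common sum. The lower genes numbered 170 under the median of ratios and under TMM (60.2% higher in both) and 173 without the 50 most abundant genes (59.4% higher). There were 131 higher genes among those measured in the control library (57.2% higher) and 42 lower mRNA genes (87.0% higher).

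Under the median of ratios, TMM and the scaling without the 50 most abundant genes, the collagen median of 0.53 was 0.35, 0.35 and 0.33, the fibrillar median 0.40, 0.41 and 0.39, the fibril-associated median 0.46, 0.46 and 0.45, the transmembrane median 0.19, 0.19 and 0.18, the processing median 0.31, 0.31 and 0.29, the receptor median 0.11, 0.11 and 0.10, and the ratio of collagen sums 1.34, 1.35 and 1.33 (1.55 when scaled to a common sum). The collagen median stayed 0.34 above the median gene under these 3 scalings and was 0.35 above it as deposited. The type IV median of 0.12 reversed to -0.088, -0.086 and -0.10, and was 0.072 at 5 FPKM or more, 0.073 with no filter and 0.072 among genes measured in the control library. The transmembrane median reversed to -0.11 at 5 FPKM or more, which leaves 2 genes, and the fibrillar median was 0.68 among genes with recovered reads. Of 39 measured collagens, 34 kept their sign under all 6 alternatives for single genes. The other 5 reversed under the same 3 scalings, Col4a1 to -0.088, -0.086 and -0.10, Col4a2 to -0.18, -0.18 and -0.19, Col18a1 to -0.048, -0.046 and -0.060, Col19a1 to -0.020, -0.019 and -0.028, and Col27a1 to -0.050, -0.048 and -0.060.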
